A study of Mus musculus with 6 samples.

Results

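The acrosome is the enzyme-filled cap that a spermatid builds over its nucleus. Ribosome footprints on 35 mouse genes of the acrosome were examined, covering its matrix, its membranes and the machinery that assembles it. The genes were given as a list, and 34 of them had a row among the 22770 gene rows of the ribosome profiling table; footprints on Actl7b were not analysed here. All 34 passed the filter of a mean of at least 1 FPKM and were among the 15578 tested rows. FPKM counts fragments per kilobase of a transcript, scaled by the size of the library, and serves here as footprint density. The libraries came from round spermatids, the haploid cells that follow meiosis, taken from mouse testis in 3 samples with a wild-type genotype (WT) and 3 samples with the genotype labelled Eif5a SKO. EIF5A, a hypusine-bearing translation factor, helps ribosomes through difficult stretches of coding sequence. The labels give no strain, age or Cre driver, and do not spell out SKO; the design text of the series, written for an accessibility assay, names sorted cells of 3 mice per group.

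Acrosome formation begins in round spermatids, when vesicles from the Golgi apparatus carry proenzymes to the nuclear surface, fuse there into a single granule and spread over the nucleus as a cap. Its matrix holds proteases, protease inhibitors and binding proteins that are released when the sperm meets the egg. Its membranes and the neighbouring sperm surface carry hyaluronidases, glycolipid-anchored proteases and adhesion proteins. Loss of vesicle trafficking genes such as Gopc, Pick1 or Vps54 is known to give round-headed sperm without a normal acrosome. Footprint density reflects mRNA amount, initiation and elongation together, and RNA levels were not analysed here. In such bulk samples fewer cells of a type and less RNA per cell cannot be told apart.

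Across the series, absolute depth is unknown. Most-frequent ratios between rows under 1 FPKM gave relative depths of 0.503 to 0.787 for the other 5 libraries, with SKO replicate 1 set to 1. Footprints on Eif5a itself were at 34.2, 48.8 and 61.9 FPKM in WT replicates 1, 2 and 3 and at 1.84, 1.93 and 2.99 FPKM in SKO (log2 fold change -3.90, SE 0.37, limma adjusted p = 0.00641). All 7 round spermatid markers had rows, and their summed density was 337 to 664 FPKM in WT and 427 to 881 FPKM in SKO. Of these, 6 had a higher mean in SKO, Catsper4 only barely, and Crem a lower one. Catsper3 and Txndc8 had ratios of means of 2.20 and 1.71. Their groups overlapped with the deposited values and no longer did so, with SKO above, after the TMM-type scaling described below. Summed markers of somatic testis cells and of blood differed between the genotypes, while those of spermatocytes and elongating spermatids overlapped. The 6 Leydig cell markers, all higher on average in SKO, summed to 11.8 to 18.2 FPKM in WT and 60.6 to 116 FPKM in SKO. Of 8 Sertoli cell markers 4 had rows, again all higher on average in SKO, with sums of 8.85 to 18.9 FPKM against 48.7 to 71.1 FPKM. The densest were Clu and Ctsl, averaging 27.7 and 28.0 FPKM in SKO. Dhh overlapped, at 0.884, 0.965 and 1.16 FPKM in WT replicates 1, 2 and 3 and 0.658, 2.12 and 0.594 FPKM in SKO. Values of Sox9, Amh, Rhox5 and Wt1 were not analysed here. The 4 peritubular markers summed to 4.54 to 6.19 FPKM and 25.8 to 39.2 FPKM. Of 8 blood, macrophage and endothelial markers 6 had rows, none higher in SKO, with sums of 51.0 to 113 FPKM in WT and 16.1 to 43.4 FPKM in SKO. The 7 spermatocyte markers with rows summed to 83.1 to 158 FPKM and 83.4 to 144 FPKM, and the 6 elongating spermatid markers to 71.4 to 128 FPKM and 76.7 to 107 FPKM. The 4 spermatogonium markers with rows, all with a higher mean FPKM in SKO, summed to 11.7 to 12.6 FPKM and 12.9 to 19.6 FPKM. On the log2 scale Dmrt1 and Kit were lower in SKO, with log2 fold changes of -0.74 (SE 0.47) and -0.05 (SE 0.46). After the TMM-type scaling described below the sums overlapped, at 10.5 to 15.5 FPKM in WT and 9.87 to 21.2 FPKM in SKO. Among all marker genes with rows, Dmrt1 of the spermatogonium list and the macrophage gene Cd68 were each at 0 in 1 SKO library, and no other marker was at 0 in any library.

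Footprint densities of most acrosome genes overlapped between the genotypes, while 7 genes, led by the lysozyme-like gene Lyzl1 and by Spaca9, lay higher in every SKO library than in any WT library. With the deposited values 0 of the 34 genes passed the test (limma on log2(FPKM + 1), Benjamini-Hochberg over all tested rows, adjusted p under 0.05), where 0.128% of all tested rows passed, 0.109% as higher in SKO and 0.0193% as lower. At an unadjusted p under 0.05, 6 genes were higher in SKO and 0 lower, against 8.15% and 2.83% of all tested rows. The groups did not overlap in 7 of the 34, all with SKO above, against 10.9% of all tested rows in that direction, and in 0 with SKO below, against 4.78%. Under TMM-type scaling, in which a factor per library brings the bulk of genes to a common level, Lyzl1 and Spaca9 rose. These were 2 of 34 genes, both higher, where 1.02% of all tested rows passed, 0.764% as higher and 0.257% as lower. Neither call held when any of the 6 libraries was left out, where fewer of all tested rows passed as well. Over the 24 other settings the log2 fold change relative to the median of all tested rows ran from 1.26 to 1.60 for Lyzl1. For Spaca9 it ran from 1.34 to 1.71. On that scale 8 genes were higher and 1, Pdcl2, lower at an unadjusted p under 0.05, against 8.90% and 6.71% of all tested rows. Groups did not overlap in 9 genes with SKO above and in 3 with SKO below, against 11.6% and 9.85%. The median log2 fold change of the 34 genes was 0.16 with the deposited values, beside 0.13 for all tested rows. Scaled, both medians were near 0, at 0.0025 for the acrosome genes and 0.0028 for all tested rows. Fold changes below are SKO minus WT on the log2(FPKM + 1) scale and, unless called scaled, are given relative to the median of all tested rows.

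Footprint levels differed widely among the genes. In WT the densest were the matrix genes Spink2, Acrbp and Acrv1, at percentiles 99.9, 99.8 and 99.7 of the 11107 tested protein-coding rows. Trafficking genes used by many cell types lay lowest, with Smap2 at percentile 18.8 and Vps54 at percentile 26.3. Of the 34 genes, 9 averaged at least 100 FPKM over the 6 libraries and 6 averaged under 5 FPKM. Libraries differed in overall level: SKO replicate 2 held the highest value for 21 genes and WT replicate 1 the lowest for 14. Protein-coding rows made up 25.9%, 22.3% and 28.3% of the summed FPKM of all rows in WT replicates 1, 2 and 3. In SKO these shares were 18.2%, 32.9% and 29.6%. The median coefficient of variation within a group was 30.5% in WT and 37.8% in SKO, and 20.2% and 18.1% after TMM-type scaling. Together the 34 genes took 1.67%, 1.79% and 1.85% of the summed protein-coding FPKM in the WT libraries and 1.88%, 2.12% and 1.98% in the SKO libraries. Spink2, Acrbp and Acrv1 weigh most in these sums, with WT means of 830, 548 and 403 FPKM, and each overlapped between the genotypes.

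**Figure D1:**
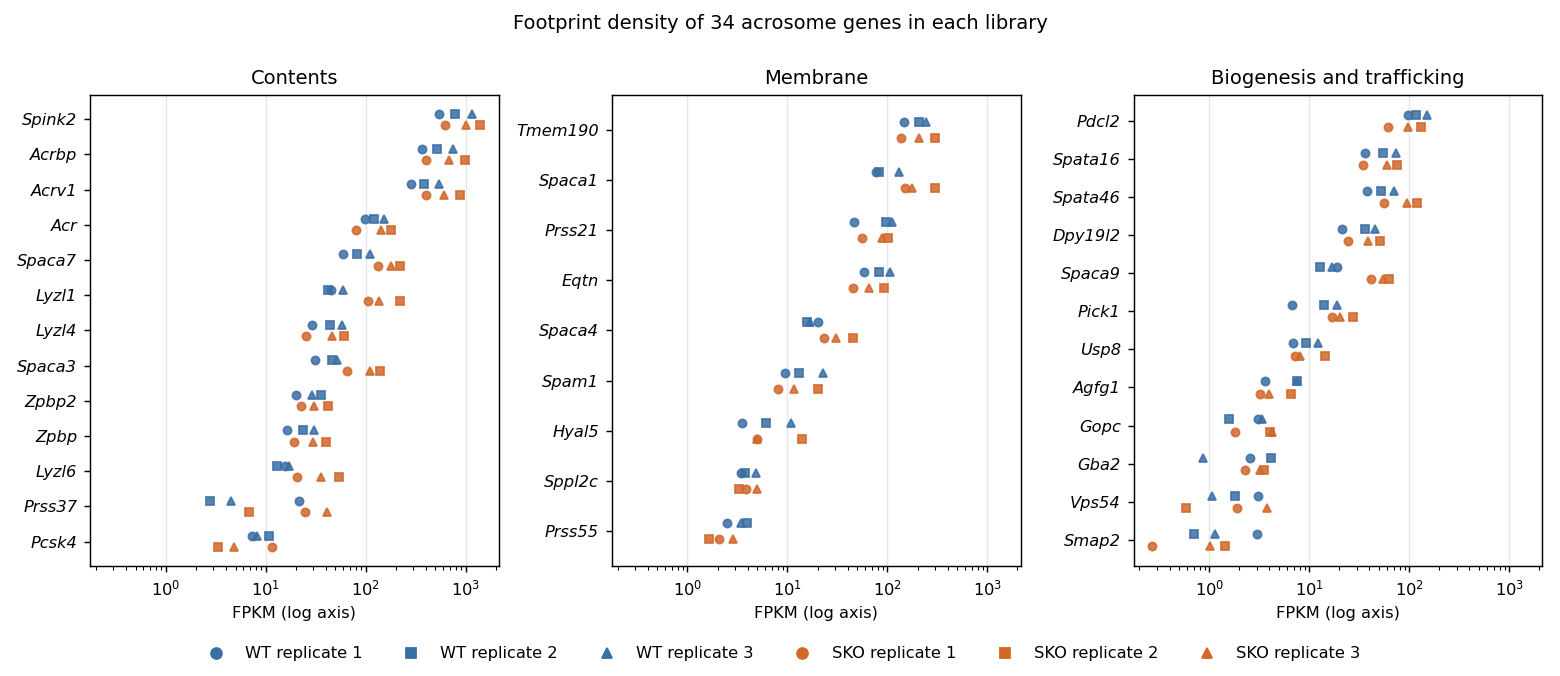
Footprint density of the 34 acrosome genes in each library, in FPKM on a log axis, by role; blue marks WT, orange SKO, and the symbol the replicate number. Lyzl1, Lyzl6, Spaca3, Spaca7, Spaca1, Spaca4 and Spaca9 are the 7 genes whose groups do not overlap.

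Of the 13 genes for acrosome contents, the most abundant did not separate the genotypes. Spink2 encodes a Kazal-type inhibitor that keeps acrosomal proteases in check. Its density was 538, 780 and 1172 FPKM in WT replicates 1, 2 and 3 and 622, 1401 and 1022 FPKM in SKO. The groups overlapped, with a log2 fold change of 0.16 (SE 0.51, limma adjusted p = 0.887). Acrbp, whose product binds proacrosin and packs it into the granule, was at 366, 520 and 757 FPKM in WT and 401, 982 and 676 FPKM in SKO. These ranges overlapped as well (log2 fold change 0.17, SE 0.50, limma adjusted p = 0.882). Acrv1 encodes SP-10, an acrosomal matrix protein, and had 287, 382 and 540 FPKM in WT and 405, 875 and 605 FPKM in SKO. Only SKO replicate 1 lay within the WT range (log2 fold change 0.49, SE 0.48, limma adjusted p = 0.674). Acr, the gene of acrosin itself, averaged 125 ± 27.3 FPKM in WT and 134 ± 50.9 FPKM in SKO (SD, n = 3 per group). The zona pellucida-binding protein genes Zpbp, at 23.5 ± 7.15 and 29.5 ± 10.4 FPKM, and Zpbp2, at 28.3 ± 7.86 and 31.6 ± 9.78 FPKM, also overlapped. An overlap of Zpbp with Spata48 and 2 pseudogenes that have rows of their own means that reads could be divided among them.

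Of the 4 lysozyme-like contents genes, 3 had every SKO library above every WT library, as had 10.9% of all tested rows. They encode relatives of C-type lysozyme, several of them found in the sperm head. Lyzl1 was at 44.6, 42.2 and 58.9 FPKM in WT replicates 1, 2 and 3 and at 106, 222 and 136 FPKM in SKO. Every SKO library lay above every WT library, and the SKO mean was 3.19 times the WT mean. The log2 fold change was 1.47 (SE 0.42, limma adjusted p = 0.221), and under TMM-type scaling the gene passed, with a change of 1.43 (SE 0.21, limma adjusted p = 0.0410). With 20 possible assignments, an exact permutation test (two-sided) cannot go below 0.1, and p = 0.1 was its result.

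Spaca3, also known as SLLP1, is a lysozyme-like protein of the acrosomal matrix. It had 31.0, 45.7 and 51.5 FPKM in WT and 65.6, 139 and 111 FPKM in SKO. These groups did not overlap either, and the SKO mean was 2.47 times the WT mean (log2 fold change 1.12, SE 0.43, limma adjusted p = 0.330; scaled, adjusted p = 0.0738). Lyzl6 was at 15.7, 12.9 and 17.1 FPKM in WT and 20.7, 53.9 and 35.6 FPKM in SKO. The lowest SKO value, of replicate 1, was close to the highest WT value (log2 fold change 1.00, SE 0.42, limma adjusted p = 0.374). Lyzl4 gave 28.8, 44.4 and 57.8 FPKM in WT and 25.4, 60.8 and 46.3 FPKM in SKO, with overlapping groups and a ratio of means of 1.01. Lyzl4 overlaps the antisense lncRNA Lyzl4os, at 7.08 ± 5.89 FPKM in WT and 20.8 ± 7.31 FPKM in SKO (SD, n = 3 per group), and no source used here says whether strand was used in counting. The macrophage lysozyme gene Lyz2, a somatic relative, was at 0.780 ± 0.144 and 1.68 ± 0.178 FPKM.

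**Figure D2:**
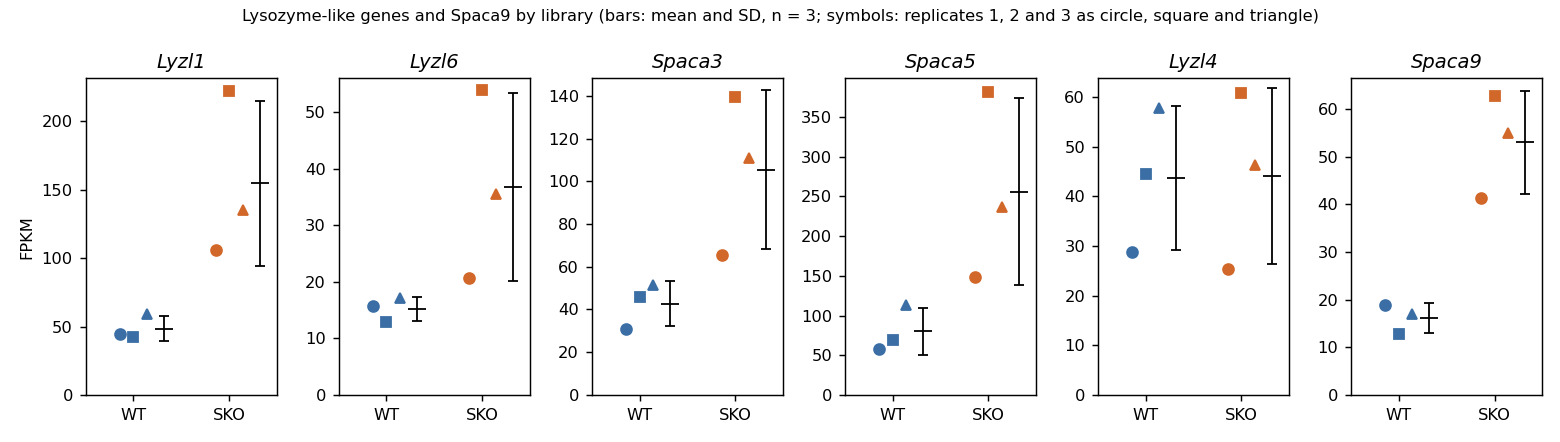
FPKM of Lyzl1, Lyzl6, Spaca3, the X-linked Spaca5, Lyzl4 and Spaca9 by library, each panel on its own linear axis from 0, with mean and SD (n = 3) beside the points. All SKO points lie above all WT points except for Lyzl4, whose groups have nearly equal means of 43.7 and 44.2 FPKM.

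Among the remaining contents genes Spaca7 stood nearest to the lysozyme-like set. SPACA7 is an acrosomal protein released during the acrosome reaction. Its density was 60.1, 82.4 and 112 FPKM in WT and 134, 223 and 179 FPKM in SKO, again without overlap and with a ratio of means of 2.11 (log2 fold change 0.95, SE 0.42, limma adjusted p = 0.394; scaled, adjusted p = 0.0895). Prss37, a trypsin-like protein needed for male fertility, had a similar ratio of means but far more spread, at 21.4, 2.81 and 4.51 FPKM in WT and 24.9, 6.90 and 41.5 FPKM in SKO. Its 2 groups overlapped, and the SE of its log2 fold change, 0.76, was the largest of the 34 genes. Pcsk4, the proprotein convertase of germ cells, averaged 8.83 ± 1.85 FPKM in WT and 6.60 ± 4.45 FPKM in SKO, the lowest relative log2 fold change of the list at -0.64 (SE 0.45, limma adjusted p = 0.710).

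Sequences before the gene starts were compared because several of these genes lay higher together. RefSeq gives some genes several starts. Windows of 250 bases before a start (GRCm38.p6) were matched for 29 of the 35 genes, 36 windows in all. None was found for Acr, Eqtn, Lyzl1, Pcsk4, Prss55 and Smap2. The cAMP response element TGACGTCA, to which the spermatid activator CREM binds, was searched on both strands and occurred in 0 of the 36 windows and in 1.55% of the 32851 windows of all genes. The related octamer TGATGTCA and a second motif, TTCNAGAA, were chosen after the sequences had been read, so their counts carry no test. TGATGTCA occurred in 6 of the 36 windows, those of Lyzl6, Spaca7, Spata46, Spam1, Hyal5 and Actl7b, against 2.93% of all windows. It began 36, 34, 33 and 36 bases before the start of Lyzl6, Spaca7, Spata46 and Actl7b, and 46 and 85 bases before that of Spam1 and Hyal5. TTCNAGAA lay in 4.12% of all windows and in those of Lyzl6, Spaca3, Acrv1 and Spata46, and in that of Spaca5, a further lysozyme-like gene on the X chromosome. Of the genes with every SKO library above every WT library, Spaca1, Spaca4 and Spaca9 held none of these motifs, and Lyzl1 had no window. No motif overlapped another in these windows. Below are the windows of Lyzl6, Spaca7 and Spata46, which hold TGATGTCA at nearby positions, of Spam1, which holds it without higher footprints in SKO, and of the lysozyme-like genes Spaca3 and Spaca5. They run 5′ to 3′, with matches to either motif in capitals. A match is a description and not a site. Where a gene had several windows, the one with the most matches is shown. The Spaca3 window precedes a start inside the gene, whose span begins at 80858363, and its marked stretch lies across that base.
Lyzl6, chr11:103638891-103639140, minus strand: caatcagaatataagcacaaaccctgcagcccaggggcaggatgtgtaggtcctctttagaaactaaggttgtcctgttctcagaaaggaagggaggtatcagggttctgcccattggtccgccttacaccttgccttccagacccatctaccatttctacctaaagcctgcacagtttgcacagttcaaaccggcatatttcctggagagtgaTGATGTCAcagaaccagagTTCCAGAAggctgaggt
Spaca7, chr8:12572786-12573035, plus strand: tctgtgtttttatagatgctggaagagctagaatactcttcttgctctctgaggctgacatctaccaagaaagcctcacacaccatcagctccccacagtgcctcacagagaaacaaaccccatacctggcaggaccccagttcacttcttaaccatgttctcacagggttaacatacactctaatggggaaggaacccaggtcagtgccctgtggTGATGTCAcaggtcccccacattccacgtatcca
Spata46, chr1:170308569-170308818, plus strand: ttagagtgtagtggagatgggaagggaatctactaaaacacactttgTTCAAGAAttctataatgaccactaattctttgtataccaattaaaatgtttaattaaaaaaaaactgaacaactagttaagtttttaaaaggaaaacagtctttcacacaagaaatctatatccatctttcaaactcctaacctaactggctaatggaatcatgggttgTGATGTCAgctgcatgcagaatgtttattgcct
Spam1, chr6:24790938-24791187, plus strand: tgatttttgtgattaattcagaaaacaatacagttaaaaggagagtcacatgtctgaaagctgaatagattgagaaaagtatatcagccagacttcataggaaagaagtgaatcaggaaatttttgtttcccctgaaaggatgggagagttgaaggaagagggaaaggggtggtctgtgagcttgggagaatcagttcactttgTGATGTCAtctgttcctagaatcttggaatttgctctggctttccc
Spaca3, chr11:80858139-80858388, plus strand: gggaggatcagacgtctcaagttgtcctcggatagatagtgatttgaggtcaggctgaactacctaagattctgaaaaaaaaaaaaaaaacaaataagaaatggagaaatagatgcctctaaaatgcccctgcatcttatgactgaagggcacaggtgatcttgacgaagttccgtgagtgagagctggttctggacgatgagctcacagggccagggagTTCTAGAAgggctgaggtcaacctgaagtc
Spaca5, chrX:21068180-21068429, plus strand: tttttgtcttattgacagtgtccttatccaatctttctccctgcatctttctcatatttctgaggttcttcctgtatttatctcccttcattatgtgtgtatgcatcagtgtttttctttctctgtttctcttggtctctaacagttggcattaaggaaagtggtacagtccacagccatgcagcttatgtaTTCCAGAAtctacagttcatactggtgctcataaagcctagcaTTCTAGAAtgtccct

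Of the 9 membrane and surface genes, Spaca1 and Spaca4 had every SKO library above every WT library, and the other 7 overlapped; such separation was found in 10.9% of all tested rows. Tmem190, an inner acrosomal membrane protein and the densest of this group, was at 146, 207 and 244 FPKM in WT replicates 1, 2 and 3 and 136, 299 and 208 FPKM in SKO. Neither group stood apart (log2 fold change -0.06, SE 0.45, limma adjusted p = 0.978). Spaca1, a membrane protein without which the acrosome does not form normally, had 77.1, 82.0 and 130.04 FPKM in WT and 149.7, 301 and 178 FPKM in SKO. All SKO values exceeded all WT values, with a ratio of means of 2.18 (log2 fold change 0.96, SE 0.44, limma adjusted p = 0.416; scaled, adjusted p = 0.110). Prss21, the glycolipid-anchored protease testisin, was at 46.5, 97.4 and 110.5 FPKM in WT and 56.3, 102 and 88.8 FPKM in SKO. Its ranges overlapped almost fully (log2 fold change -0.12, SE 0.47, limma adjusted p = 0.996).

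Spaca4, a Ly6-type surface protein that takes part in zona binding, averaged 17.6 ± 2.18 FPKM in WT and 33.0 ± 11.5 FPKM in SKO (SD, n = 3 per group). Its groups did not overlap (log2 fold change 0.70, SE 0.39, limma adjusted p = 0.475). The gene lies within the span of Fam83e, whose own row stood at 2.40 ± 0.470 and 2.86 ± 0.611 FPKM. Eqtn, the acrosomal membrane protein equatorin, was at 82.9 ± 24.3 and 68.0 ± 23.5 FPKM with overlapping values. After TMM-type scaling its groups no longer overlapped, with SKO below (scaled log2 fold change -0.47, limma adjusted p = 0.350). The same held for Prss55, a further glycolipid-anchored protease, at 3.31 ± 0.757 and 2.19 ± 0.600 FPKM, with a scaled change of -0.55 (limma adjusted p = 0.457). The hyaluronidase genes Spam1 and Hyal5, neighbours on chromosome 6 and related in sequence, had 15.1 ± 6.95 and 13.3 ± 6.26 FPKM, and 6.81 ± 3.72 and 7.91 ± 5.16 FPKM. Sppl2c, an intramembrane protease of spermatids, was nearly level at 4.01 ± 0.725 and 4.06 ± 0.858 FPKM.

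Of the 12 biogenesis and trafficking genes, 1, Spaca9, had every SKO library above every WT library with the deposited values, a share near the 10.9% of all tested rows. SPACA9 is a microtubule-associated protein of the sperm, first described as acrosome associated. Spaca9 (gene identifier 69987, GRCm38 chromosome 2, 28692080 to 28699651) was at 18.9, 12.8 and 16.9 FPKM in WT and 41.3, 62.8 and 54.9 FPKM in SKO. The groups lay far apart, the lowest SKO value above the highest WT value, with a ratio of means of 3.28. Its log2 fold change was 1.52 (SE 0.37, limma adjusted p = 0.165), and it passed under TMM-type scaling, with a change of 1.48 (SE 0.24, limma adjusted p = 0.0455; two-sided exact permutation p = 0.1 with the deposited values). Its neighbour Ak8, which overlaps it on the chromosome, spanned 62.9 to 126 FPKM in WT and 66.3 to 127 FPKM in SKO. The calls of Lyzl1 and Spaca9 under TMM-type scaling were lost when any of the 6 libraries was left out, with limma adjusted p between 0.0764 and 0.174 for Lyzl1 and between 0.0570 and 0.182 for Spaca9. The summed Leydig, Sertoli and peritubular markers given above were also higher in each SKO library than in any WT library. The haemoglobin genes were lower in each. The part of these markers in the differences was not tested.

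Pdcl2, a phosducin-like protein that acts with a chaperonin in acrosome formation, was the densest gene of this group. It had 97.8, 117 and 149 FPKM in WT and 61.1, 130 and 97.5 FPKM in SKO, and the groups overlapped (log2 fold change -0.50, SE 0.43, limma adjusted p = 0.800). They no longer did so under TMM-type scaling, with SKO below (scaled log2 fold change -0.55, limma adjusted p = 0.260). Spata46, a protein of the region between acrosome and nucleus, was at 37.9, 52.6 and 70.1 FPKM in WT and 55.9, 121 and 93.9 FPKM in SKO. One SKO library lay inside the WT range with the deposited values and none after scaling (log2 fold change 0.59, SE 0.44, limma adjusted p = 0.597; scaled, adjusted p = 0.299). Spata16, a Golgi protein whose loss gives round-headed sperm, had 35.7, 54.1 and 73.2 FPKM in WT and 34.8, 75.6 and 60.6 FPKM in SKO. Its means differed by less than the spread between replicates (log2 fold change -0.07, SE 0.45, limma adjusted p = 0.981).

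With the deposited values the remaining genes of this group overlapped between the genotypes. Dpy19l2, the inner nuclear membrane protein that anchors the acrosome, averaged 34.2 ± 12.1 FPKM in WT and 38.3 ± 13.4 FPKM in SKO (SD, n = 3 per group). Pick1, a membrane-bending PDZ protein, was at 13.3 ± 6.19 and 21.6 ± 5.42 FPKM, and its scaled groups ceased to overlap, with SKO above (scaled log2 fold change 0.59, limma adjusted p = 0.386). Its Golgi partner Gopc was at 2.69 ± 0.963 and 3.36 ± 1.35 FPKM. Usp8, a deubiquitinase of endosomes, had 9.53 ± 2.67 and 9.82 ± 3.90 FPKM, and the vesicle fusion gene Agfg1 6.21 ± 2.24 and 4.59 ± 1.76 FPKM. Gba2, a glucosylceramidase, Vps54, a tether subunit at the Golgi, and Smap2, an Arf GTPase-activating protein, stood at 2.51 ± 1.63, 1.98 ± 1.03 and 1.60 ± 1.21 FPKM in WT. Their SKO values were 3.00 ± 0.666, 2.07 ± 1.59 and 0.906 ± 0.595 FPKM. Counting Zpbp, Lyzl4, Spaca4 and Spaca9, 9 of the listed genes overlap a gene with a row of its own. The others are Dpy19l2 (Cypt4), Gba2 (Creb3 and Rgp1), Gopc (Gm6627), Vps54 (Ugp2) and Tmem190 (Il11). Reads could be divided there too.

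**Figure D3:**
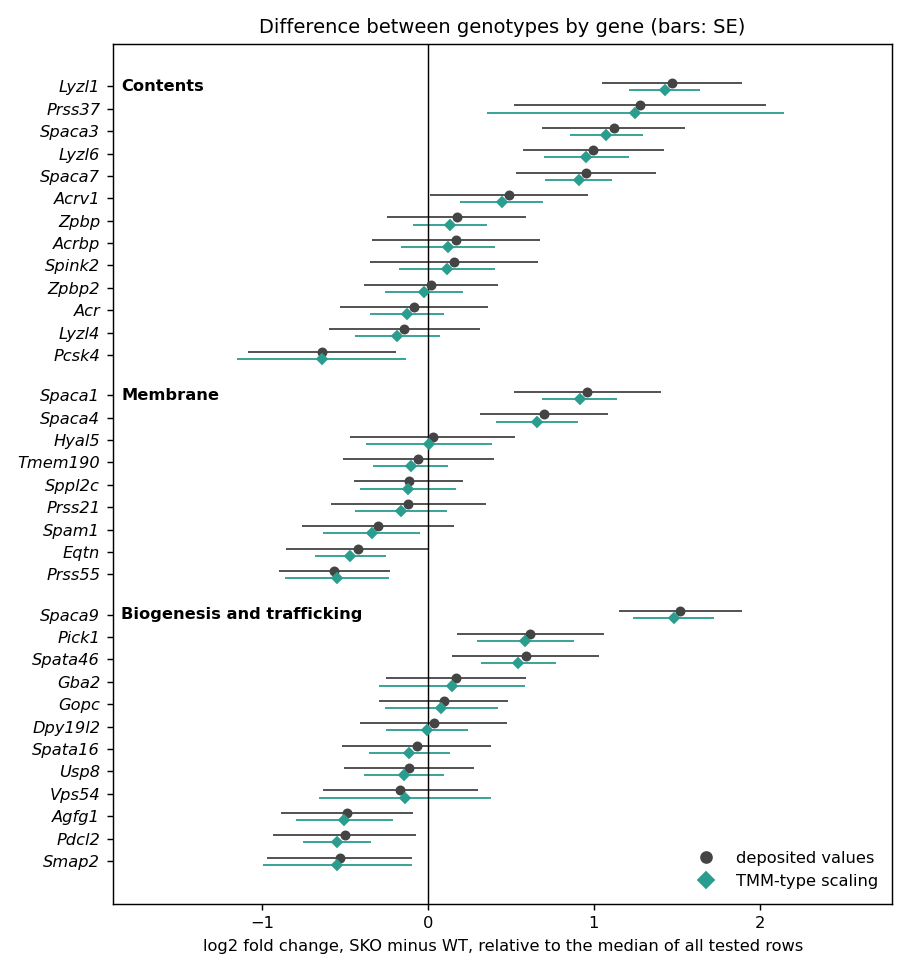
The log2 fold change (SKO minus WT) of each gene relative to the median of all tested rows, with its SE, for the deposited values (circles) and after TMM-type scaling (diamonds). The genes run from Spaca9 at 1.52 to Pcsk4 at -0.64 with the deposited values.

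The role groups had medians close to that of all tested rows. The 13 contents genes had a median log2 fold change of 0.17 relative to all tested rows, with 10 above that median. For the 9 membrane genes the median was -0.12, with 3 above, and for the 12 biogenesis and trafficking genes -0.02, with 6 above. Contents and membrane genes together lay 0.11 above the biogenesis and trafficking genes. Without WT replicate 1 that difference was -0.25. Within each library the median log2 level of contents and membrane genes exceeded that of biogenesis and trafficking genes by 1.98, 1.89 and 1.85 in WT and 1.54, 1.86 and 2.02 in SKO, so the groups overlapped.

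Ratios between 2 genes of the same library do not change when each library is scaled by a factor of its own. The pairs were chosen after the values were seen and are given as a description. In all but the last pair below, the upper gene had already separated the genotypes on its own, so a separated ratio is no further support. The share of all gene pairs that separate was not counted. Lyzl1 stood at 1.55, 0.950 and 1.02 times Lyzl4 in WT replicates 1, 2 and 3 and at 4.18, 3.66 and 2.93 times in SKO. For Spaca3 over Lyzl4 the ratios were 1.08, 1.03 and 0.890 in WT and 2.58, 2.29 and 2.40 in SKO. Lyzl6 over Lyzl4 gave 0.546, 0.291 and 0.297 against 0.817, 0.887 and 0.769. None of these 3 ratios overlapped between the genotypes. Spaca9 over Acr was 0.191, 0.104 and 0.110 in WT and 0.521, 0.348 and 0.387 in SKO. Between 2 membrane genes, Spaca1 over Eqtn went from 1.32, 0.988 and 1.21 to 3.27, 3.26 and 2.71. By contrast Acrbp over Acr, the packing protein and its enzyme, gave 3.70, 4.24 and 4.94 in WT and 5.05, 5.45 and 4.76 in SKO, with overlap.

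**Figure D4:**
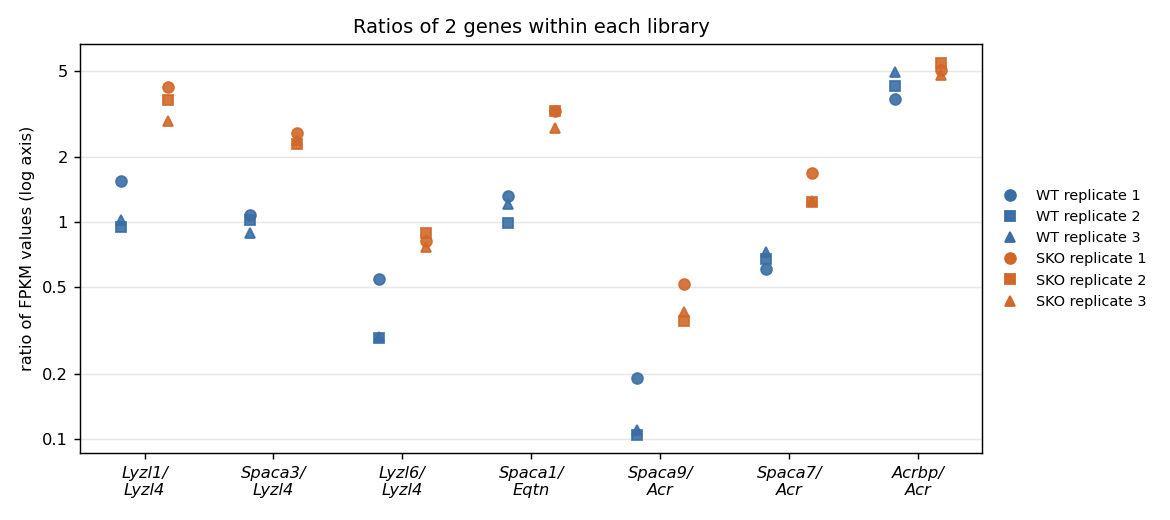
Ratios of the FPKM values of 2 genes within each library, on a log axis; blue marks WT, orange SKO, and the symbol the replicate number. The ratios of Lyzl1, Spaca3 and Lyzl6 to Lyzl4, of Spaca1 to Eqtn and of Spaca9 and Spaca7 to Acr do not overlap between genotypes, and that of Acrbp to Acr does. The pairs were chosen after the values were seen, and the upper gene of each separated ratio was itself without overlap.

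A list of 44 further acrosome genes, which holds other contents, membrane and fusion machinery genes, gave 36 rows, of which 35 were tested. With the deposited values 0 passed (limma, adjusted p under 0.05), and 5 were higher and 0 lower at an unadjusted p under 0.05, against 8.15% and 2.83% of all tested rows. Under TMM-type scaling 0 passed as well, with 8 higher and 2 lower at an unadjusted p under 0.05, against 8.90% and 6.71%. Their median log2 fold change was 0.34 relative to all tested rows, and 22 of the 35 lay above that median. The densest were Dkkl1, a glycoprotein of the acrosome, at 639.9 ± 323 FPKM in WT and 860.5 ± 313 FPKM in SKO (SD, n = 3 per group), and the zona-binding matrix gene Zp3r, at 194 ± 67.2 and 140.3 ± 49.8 FPKM. Named after their values were seen, Spaca5 and Fam209 were the 2 with the highest fold change. Spaca5, the lysozyme-like gene on the X chromosome, was at 57.9, 68.7 and 114 FPKM in WT and 149, 382 and 237 FPKM in SKO (log2 fold change 1.49, SE 0.48, limma adjusted p = 0.279; scaled, adjusted p = 0.0585). Its shift has to be read beside that of the X chromosome, whose 363 tested protein-coding genes had a median of 0.64 on the same scale. Fam209, whose protein binds DPY19L2 at the inner nuclear membrane, was at 38.4, 37.0 and 80.5 FPKM in WT and 91.5, 230.4 and 159 FPKM in SKO (log2 fold change 1.48, SE 0.50, limma adjusted p = 0.294). Neither gene overlapped between the groups. With the deposited values 5 of the 35 tested genes did not overlap with SKO above, and 2, Izumo3 and Vps13b, with SKO below. The shares of all tested rows were 10.9% and 4.78%. Under TMM-type scaling the counts were 13 and 3, against 11.6% and 9.85% of all tested rows.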

How the data were processed

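Ribosome-protected fragments of round spermatids were measured in 3 wild-type and 3 Eif5a SKO samples, grouped by genotype label; the table's cKO columns were matched to the SKO samples by replicate number. The deposited values are FPKM computed by the authors, 1 value per gene row and library; counts were not used here. Cutadapt, Bowtie2, STAR, Cufflinks and mm10 appear per the submitters' processing notes; their roles, the annotation, strand and how multi-mapping reads were handled are each not given in the sources used here. The protocol in the labels describes cycloheximide, RNase I digestion, a sucrose cushion and a small RNA kit.

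The test was two-sided, by lmFit and trended eBayes of limma 3.58.1 (R 4.3.3), on log2(FPKM + 1) of rows averaging at least 1 FPKM, with p adjusted by Benjamini-Hochberg across the 15578 rows, threshold 0.05; the pseudocount of 1 understates changes of low genes. The fit was tested on simulated data. The TMM-type scaling cut off the outer 0.3 of log ratios and 0.05 of levels on either side, with factors from 0.812 to 1.31. The labels do not tie samples to animals, so p-values cover only the spread among these samples, which may be technical. Members, role groups, marker and gene lists were chosen with earlier results of these data known. Genes given library by library were those past the test in either scaling, those with an unadjusted p under 0.05 and the 3 densest of each role; of the further acrosome genes, those past the test or else the 2 densest. Library values of Lyzl4 and Prss37, and Lyzl4os, Lyz2, Ak8, Fam83e, Spaca5 and Fam209, were added after their values were seen. Gene positions and sequences are RefSeq's for GRCm38, with 19305 rows matched by symbol. Alternatives were other pseudocounts, filters, scalings and variance models, a replicate block, and each library left out.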

Additional observations from a re-analysis of the deposited data

How the results depend on the processing

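With the deposited values 0 of the 34 acrosome genes passed in the main setting. The count was also 0 without a filter, with a filter at 5 FPKM, for TPM, with either other pseudocount (0.1 or 5), for untrended or robust eBayes, with the replicate block, and with any library left out. The 3 other scalings gave calls: 2 under TMM-type scaling, 5 under quantile normalization (Lyzl1, Spaca3, Spaca7 and Spaca9 higher, Pdcl2 lower) and 5 with equal sums over protein-coding rows (Lyzl1, Spaca1, Spaca3, Spaca7 and Spaca9, all higher). Of all tested rows 1.02%, 2.86% and 3.31% were called in these settings. The last 2 also called 3 of the further acrosome genes each (Spaca5, Fam209 and Zp3r). Added after the data were seen, TMM-type scaling with the replicate block or with any library left out called 0.

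Over all rows the 20 calls became 4 with a pseudocount of 5, 5 with no filter, 86 with a mean of at least 5 FPKM, 63 with robust estimation, 159 under TMM-type scaling, 446 under quantile normalization and 516 with equal protein-coding sums. Of the calls 85% were higher in SKO in the main setting and 74.8%, 55.6% and 60.9% in those 3 scalings. With a library left out, the calls numbered 4 (without WT replicate 3) to 31 (without SKO replicate 2) with the deposited values, with 6, 10 and 13 without WT replicate 1, WT replicate 2 and SKO replicate 3. Under TMM-type scaling they numbered 28, 8 and 4 without WT replicates 1, 2 and 3 and 10, 23 and 13 without SKO replicates 1, 2 and 3. The cause was not tested.

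Replicate numbers did not pair the samples: deviations of same-numbered samples correlated at 0.093, 0.00016 and 0.024. With the replicate block 5 rows passed, and 4 under TMM-type scaling with the replicate block. The relative medians of the 34 genes, the contents and membrane genes and the biogenesis and trafficking genes moved by less than the replicate spread in every setting. The contents and membrane minus biogenesis and trafficking difference ran from -0.25 (without WT replicate 1) to 0.26 with a library left out, and from -0.29 to 0.27 under TMM-type scaling with a library left out.

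Of 633 single-gene values under other settings, 44 had the opposite sign to the main value, none of them past the test and none over 0.33 in size. Outside the left-out libraries they were Zpbp2 (-0.022 with a pseudocount of 0.1, -0.023 under TMM-type scaling, -0.025 for TPM, -0.040 with equal protein-coding sums, -0.066 with a mean of at least 5 FPKM, -0.10 under quantile normalization), Dpy19l2 (-0.0057, -0.0070, -0.0084, -0.023, -0.050 and -0.083 in the same order), Hyal5 (-0.00091 with equal protein-coding sums, -0.056 with a mean of at least 5 FPKM), Acrbp and Spink2 (-0.11 and -0.054 under quantile normalization) and Tmem190 (0.0044 with a pseudocount of 5). With a library left out, the relative log2 fold change ran as follows: Acrbp from -0.048 to 0.40, Spink2 from -0.046 to 0.37, Zpbp2 from -0.13 to 0.20, Hyal5 from -0.33 to 0.30, Dpy19l2 from -0.19 to 0.21, Vps54 from -0.55 to 0.33, Prss21 from -0.43 to 0.030, Gopc from -0.14 to 0.28, Tmem190 from -0.25 to 0.13, Gba2 from -0.31 to 0.50, Spata16 from -0.26 to 0.14, Acr from -0.25 to 0.15, Lyzl4 from -0.34 to 0.099 and Sppl2c from -0.24 to 0.082. Footprints on Eif5a passed in all 24 alternatives.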
